A study of Salmo trutta with 24 samples.

Results

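Cholesterol synthesis enzymes were followed in the liver of adult male brown trout (*Salmo trutta*) exposed to the estrogen 17β-estradiol (E2) or to linuron, a urea herbicide. Members were selected on the annotation text of the deposited contigs, that is the assembled transcripts: HMG-CoA reductase, isopentenyl-diphosphate isomerase, farnesyl diphosphate synthase, squalene synthase, squalene epoxidase, lanosterol synthase, lanosterol demethylase (P450 family 51) and 7-dehydrocholesterol reductase. The text chose 9 of the 11585 annotated genes, in 26 of the 66359 contigs of any table. A contig was listed in a table only where 3 of its 9 fish reached about 1.03 CPM (read counts scaled to library size), and 25 of the 26 contigs, of 8 genes, were listed in all 6 tables. The enzymes were chosen as a group with the values of these fish known, so the p-values below describe these fish and are no independent support for the choice.

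The 24 fish were 6 controls and 3 fish at each of 6 exposures, given as mean measured concentrations: E2 at 34.4, 18.1 or 1.9 ng/l, and linuron at 225.9, 15.3 or 1.7 µg/l. The sample characteristics and the study's methods give an exposure of 4 days, and the treatment protocol of the labels gives 14 days. All fish were mature males, each concentration was held in 1 tank, and the controls came from a pair of tanks that the labels do not tell apart, so an effect of the tank cannot be told apart from one of the concentration, and p-values measure only the spread between fish. The same 6 controls served every comparison with control.

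Cholesterol is built from acetyl-CoA by way of mevalonate, which HMG-CoA reductase makes in the step that limits the rate. Mevalonate is turned into isoprenoid units, these are joined to squalene, and squalene is closed to lanosterol, the first sterol, which a series of endoplasmic reticulum enzymes trims to cholesterol. In vertebrates the genes of the pathway share a regulator, the membrane-bound transcription factor SREBP-2 (*srebf2*), which is released when sterols in the cell run low. The liver is a main site of the pathway and also turns cholesterol into bile acids.

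Counts summed to between 3885077 and 10736246 per fish, with 3885077 to 8616341 in controls and 6668055 to 10007162 in fish exposed to 225.9 µg linuron/l. The estrogen receptor *esr1*, a known estrogen-responsive gene, lay between 11.0 and 33.2 CPM in controls and between 499 and 557 CPM at 34.4 ng E2/l. All 9 hepatocyte markers summed below were listed in every table. Levels below are CPM on one scale for the 24 fish, with the contigs of a gene summed. Contig lengths were not used here, so levels were not compared between genes. Tests are edgeR's quasi-likelihood test on the summed counts, adjusted by the Benjamini-Hochberg method over all annotated genes of a table, and a gene was called where the adjusted p was under 0.05.

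In fish exposed to 225.9 µg linuron/l, 5 of the 8 enzymes tested were downregulated: *fdps*, *fdft1*, *sqle*, *lss* and *cyp51*. The other 3, *hmgcra*, *idi1* and *dhcr7*, also had log2 fold changes below 0, and all 8 had an unadjusted p under 0.05. Whether the 3 differed from the 5 was not tested. Over all annotated genes, 0.173% of 10953 were called lower in the same comparison and 11.8% had an unadjusted p under 0.05. The median log2 fold change was -2.34 over the 8 enzymes and 0.02 over all genes tested. None of the 8 was called in any other group against the controls. The plot of levels by fish shows the low values at 225.9 µg/l and the wide spread in the controls and at 15.3 µg/l.

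**Figure D1:**
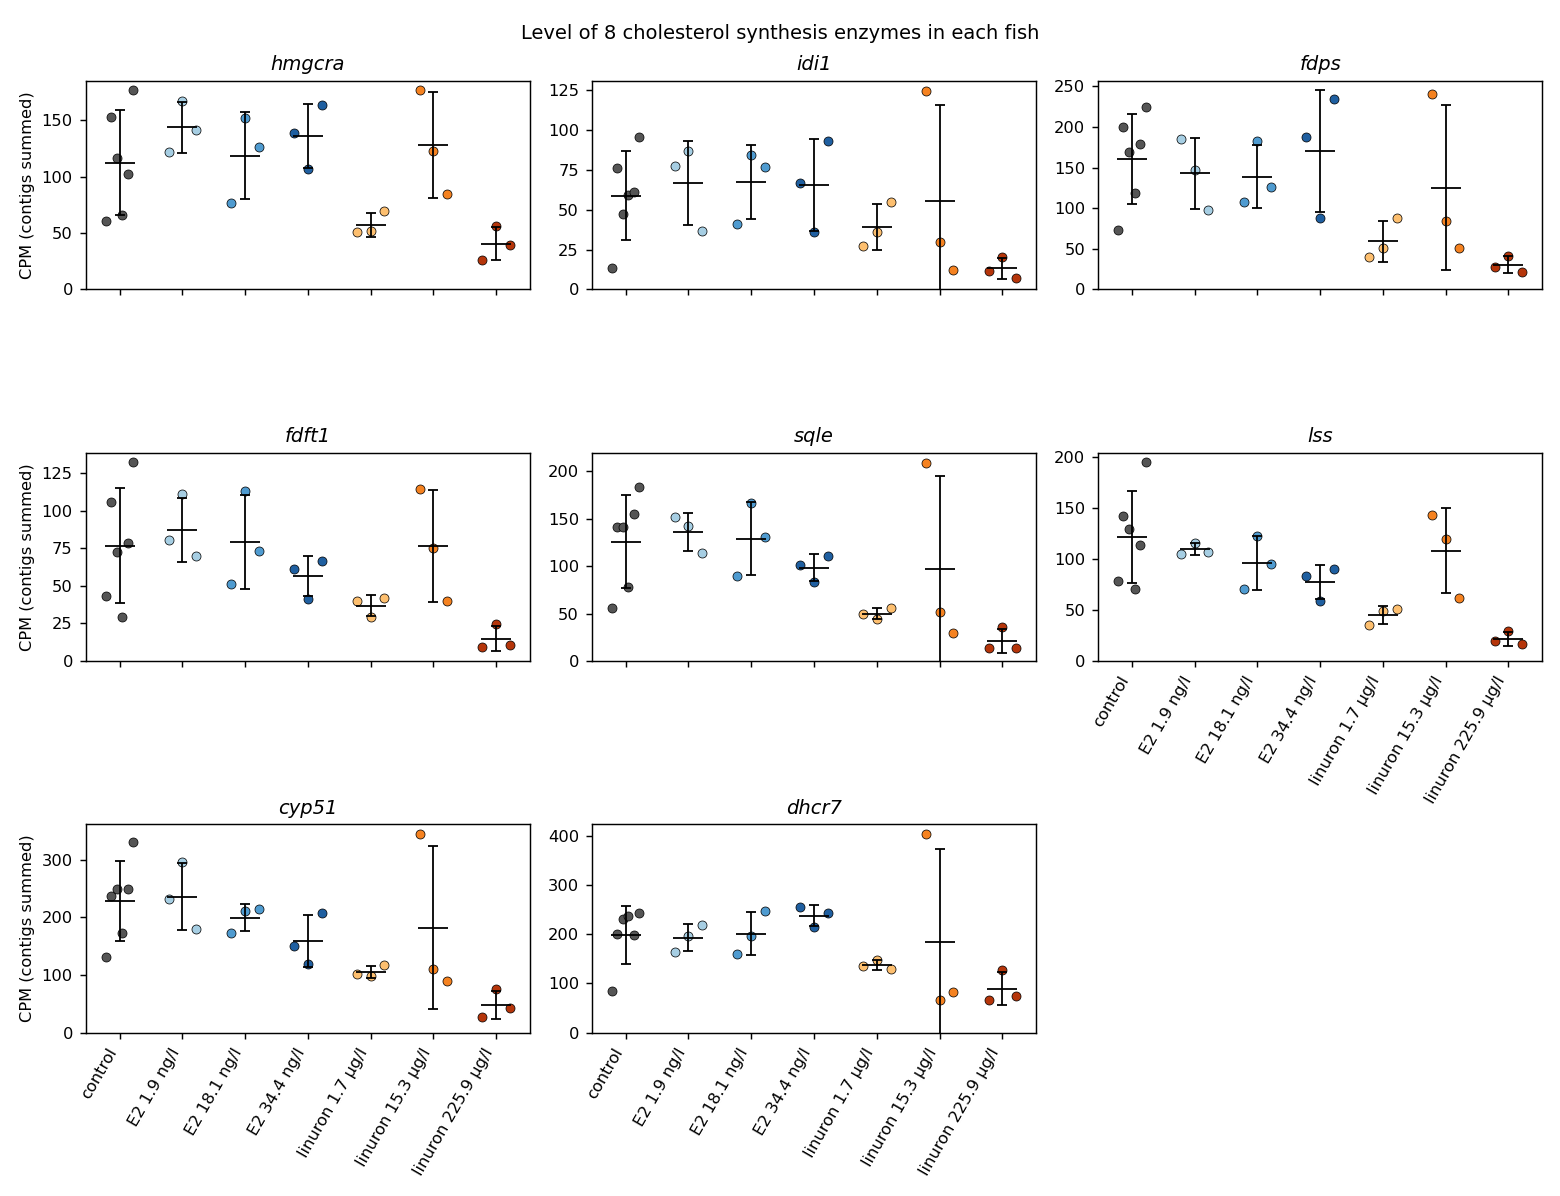
Each panel plots 1 enzyme, with the group on the horizontal axis and CPM, contigs summed, on the vertical axis. Points are fish, long bars group means and whiskers 1 SD, cut at 0. Fish exposed to 225.9 µg linuron/l have the lowest mean in every panel, and at 15.3 µg/l fish 1 lies far above the other 2 for *idi1*, *sqle*, *cyp51* and *dhcr7*.

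The first 2 of the 8 enzymes, *hmgcra* and *idi1*, were not called. The annotation *hmgcra* (ENSDARG00000052734), HMG-CoA reductase a, had 60.4, 109 and 177 CPM as the lowest, median and highest of the 6 controls, and 26.4, 56.1 and 39.5 CPM in fish 1 to 3 at 225.9 µg linuron/l. The 3 exposed fish lay below all controls, the mean was 2.77-fold lower, and the log2 fold change was -1.50 (SE 0.38, adjusted p = 0.106, edgeR's quasi-likelihood test). *idi1* (ENSDARG00000019976), which interconverts the 2 isoprenoid units, ranged from 13.6 to 95.8 CPM in controls with a median of 60.1. At 225.9 µg/l it had 11.7, 20.5 and 7.15 CPM, and control 1 lay among these fish while the other controls lay above them. Its log2 fold change was -2.20 (SE 0.52, adjusted p = 0.0971).

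The next 5 enzymes were called. *fdps* (ENSDARG00000040890), farnesyl diphosphate synthase, which joins isoprenoid units to the precursor of squalene and of several other products, had 27.9, 41.4 and 21.0 CPM at 225.9 µg/l against 73.2, 174 and 224 CPM as the lowest, median and highest control. It fell by 2.45 on the log2 scale (SE 0.37, adjusted p = 0.0102). The next enzyme, squalene synthase, commits the pathway to sterols. Its transcript *fdft1* (ENSDARG00000060260) had 9.52, 24.4 and 10.4 CPM at 225.9 µg/l, and 29.3, 75.2 and 132 CPM as the lowest, median and highest control, a log2 fold change of -2.41 (SE 0.50, adjusted p = 0.0494). For both genes all 3 exposed fish were below all 6 controls, with *fdft1* just inside the threshold.

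*sqle* (ENSDARG00000079946) encodes squalene epoxidase, which adds the oxygen that later becomes the hydroxyl group of sterols and is a second control point of the pathway. It had 13.5, 35.6 and 13.3 CPM in fish exposed to 225.9 µg linuron/l and 56.2, 141 and 183 CPM as the lowest, median and highest control. The mean was 6.06-fold lower, more than for any other of the 8 enzymes, with a log2 fold change of -2.63 (SE 0.46, adjusted p = 0.0230). *lss* (ENSDARG00000061274), lanosterol synthase, closes the rings. It had 19.3, 29.6 and 16.7 CPM against 70.8, 122 and 196 CPM as the lowest, median and highest control. Its log2 fold change was -2.51 (SE 0.36, adjusted p = 0.00675), the lowest p of the 5248 genes with a fold change below 0. Neither gene overlapped with the controls.

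*cyp51* (ENSDARG00000042641), the P450 that takes a methyl group off lanosterol, had 27.5, 75.5 and 42.9 CPM at 225.9 µg/l and 131, 243 and 331 CPM as the lowest, median and highest control, again with no overlap. Its log2 fold change was -2.27 (SE 0.37, adjusted p = 0.0161). The last of the 8 enzymes stood closer to the controls. *dhcr7* (ENSDARG00000015564), which reduces 7-dehydrocholesterol to cholesterol, had 66.4, 128 and 74.1 CPM, against 83.9 CPM in control 1 and 198 to 243 CPM in the 5 other controls. Its log2 fold change was -1.18 (SE 0.34, adjusted p = 0.150). Fish 2 at 225.9 µg/l lay within the range of the controls.

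In 6 of the 8 enzymes, namely *hmgcra* and the 5 called ones, the 3 fish at 225.9 µg linuron/l lay below all 6 controls, an arrangement found in 2.61% of all genes tested. Fish 1 and fish 3 were below every control in all 8 enzymes and fish 2 in 6. The share of all genes below every control was not computed for single fish. The calls rest on fish 1 and 3: without either of them none of the 8 enzymes was called, although the log2 fold changes of the 5 stayed between -2.43 and -1.98. Without control 3 or control 5, 3 of the 8 were called. Over all genes, 19 were called lower with every fish, 1 without fish 1 and 1 without fish 3 of the exposed group. Without control 3 and control 5, the genes called lower numbered 8 and 7.

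The ranges of the marker sums at 225.9 µg linuron/l overlapped with those of the controls, for the hepatocyte markers through the highest fish only. The 9 hepatocyte markers summed to 55386 to 95439 CPM, against 73587 to 112374 CPM in controls. Their median of 57250 CPM lay below the lowest control. The 4 red blood cell markers summed to 461 to 1615 CPM against 164 to 685 CPM. The 5 leukocyte markers summed to 255 to 500 CPM against 242 to 494 CPM, and the 3 exocrine pancreas markers to at most 2.77 CPM against at most 16.8 CPM. No marker of these lists was called, each had counts in at least 1 fish of the group, and their part in the result was not tested. In whole liver, fewer cells of a type and less RNA per cell cannot be told apart.

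Taken contig by contig, 8 of the 25 member contigs tested were called at 225.9 µg linuron/l, all lower, where 0.0295% of 57544 contigs were called lower. They were 4 of the 9 *lss* contigs, both *fdps* contigs and 1 contig each of *sqle* and *cyp51*, and made up 8 of the 17 contigs called lower in the whole table. Log2 fold changes ran from -3.23 to 0.21, and 24 of the 25 were below 0. The 9 *lss* contigs ranged from -3.23 to -1.88. The contigs of a gene may be isoforms, copies of a duplicated gene or fragments of 1 transcript, and a read that fits several was counted for 1 of them only. The same components of the assembly also held contigs without annotation, 8 for *lss*, 8 for *cyp51*, 5 for *sqle* and 1 for *fdps*. These are not in the sums. Those of *cyp51* and *fdps* also held contigs annotated as other genes, and whether reads were shared with any of these was not tested. No member contig was called without fish 1 or fish 3 of the exposed group, 1 without control 2 or control 3, 2 without control 5 or control 6, and 13 without control 1. Over all contigs, 0 were called lower without fish 1 and 3 without fish 3 of the exposed group, against 17 with every fish. Without control 1 the contigs called lower numbered 44, and without control 2, 3, 5 and 6 they numbered 7, 3, 4 and 6.

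The 6 *hmgcra* contigs fell into 3 components of the assembly, which differed in level and in change. The component with 3 contigs held most of the reads. In controls it summed to 104 ± 47.6 CPM (SD, n = 6), against 32.0 ± 14.3 CPM (SD, n = 3) at 225.9 µg linuron/l, with contig log2 fold changes of -1.95 to -1.52. The component with 2 contigs had 7.02 ± 2.83 CPM in controls and 6.42 ± 1.09 CPM at 225.9 µg/l, and that with 1 contig 1.90 ± 0.783 CPM and 2.24 ± 0.319 CPM. In these 2 smaller components the log2 fold changes ran from -0.26 to 0.21, and whether they differed from the larger one was not tested. The second reductase annotation, *hmgcrb* (ENSDARG00000059301), had 1 contig, listed only in the tables of 34.4 ng E2/l and 15.3 µg linuron/l. It had 0 to 8 counts per control fish, 15, 16 and 5 counts at 34.4 ng E2/l and 2, 8 and 11 counts at 15.3 µg/l, close to the limit of listing. Its adjusted p was 0.318 and 0.794.

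**Figure D2:**
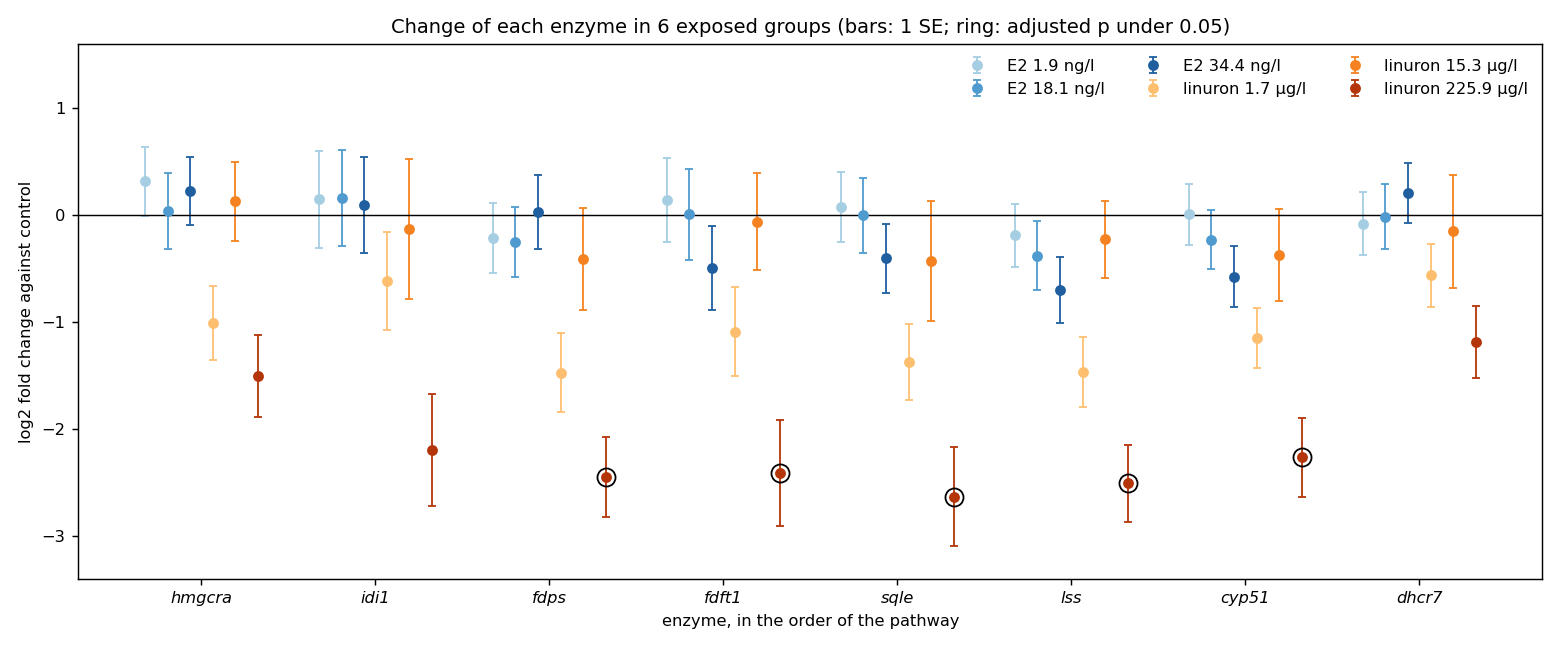
Log2 fold change against the 6 controls (vertical axis) for 8 enzymes in pathway order (horizontal axis), with 1 point per exposed group and bars of 1 SE. Rings mark an adjusted p under 0.05: *fdps*, *fdft1*, *sqle*, *lss* and *cyp51* at 225.9 µg linuron/l, from -2.63 to -2.27.

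At the lowest linuron concentration, 1.7 µg/l, all 8 enzymes had log2 fold changes below 0, from -1.47 to -0.56, with a median of -1.12 against 0.03 over all genes. None was called by edgeR's quasi-likelihood test (lowest adjusted p = 0.399), where 0% of the 10928 genes and 0% of the 57238 contigs were called. At an unadjusted p under 0.05 there were 6 of the 8, against 7.56% of all genes. The exact test of edgeR called 1, *lss*, against 0.348% of all genes, and DESeq2 called 4, against 1.02%. *sqle* had 49.2, 44.1 and 55.8 CPM, *lss* 35.1, 49.1 and 51.3 CPM and *cyp51* 101, 97.7 and 117 CPM, all below the lowest control. These 3 were the only members without overlap with the controls, against 1.46% of all genes. The hepatocyte markers of this group summed to 60593 to 81952 CPM with a median of 68952 CPM, against 73587 to 112374 CPM in controls.

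The middle concentration, 15.3 µg linuron/l, held the widest spread. Fish 1 was above every control in 6 of the 8 enzymes, while fish 2 was below every control in 3 and fish 3 in 6. Shares over all genes were not computed for these single fish either. *sqle* had 209, 51.3 and 29.3 CPM in fish 1 to 3, *dhcr7* 403, 66.9 and 82.9 CPM and *idi1* 124, 29.8 and 12.2 CPM. The highest *idi1* value was 10.2-fold the lowest within these 3 fish of 1 tank. Log2 fold changes of the 8 enzymes ran from -0.43 to 0.13, and the quasi-likelihood test called none (0% of 10841 genes, 0% of 56199 contigs). None of the 9 listed there had an unadjusted p under 0.05, against 654 of 10841 genes. The exact test and DESeq2 also called none of the 9, against 18 and 2 genes. Without fish 1 the log2 fold change of *sqle* was -1.70, that of *idi1* -1.54 and that of *dhcr7* -1.46. *fdps* was then at -1.31, *cyp51* at -1.24, *lss* and *fdft1* at -0.48, *hmgcra* at -0.18 and *hmgcrb* at 2.02. Again no enzyme was called, where 22 of 10840 genes were.

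The linuron groups were also compared with each other in a model of all 7 groups. Against 15.3 µg/l, 6 of the 8 enzymes were lower at 225.9 µg/l, where 0.544% of 10301 genes were called lower: *hmgcra*, *fdps*, *fdft1*, *sqle*, *lss* and *cyp51*, with log2 fold changes of -2.37 (*fdft1*) to -1.66 (*hmgcra*). Only 1 was called without fish 1 or fish 3 at 225.9 µg/l, 3 without fish 1 and 2 without fish 2 at 15.3 µg/l, and 2 with libraries scaled to their totals. With only the 6 fish of these 2 groups in the model, none was called. Over all genes, 56 were called lower with every fish, against 1 and 4 without fish 1 and fish 3 at 225.9 µg/l. Without fish 1 at 15.3 µg/l 589 were called lower, without fish 2 there 8, with library totals 18 and with the 6 fish alone 0. Against 1.7 µg/l none was called (0.0291% of all genes). All 8 log2 fold changes were below 0 there, from -1.59 (*idi1*) to -0.50 (*hmgcra*), and 5 had an unadjusted p under 0.05, against 3.84% of all genes. For *lss*, the 95% interval of the difference was -1.77 to -0.32. In mean level, 225.9 µg/l was the lowest and 1.7 µg/l the second lowest of the 7 groups for each of the 8 enzymes. The fish of these 2 groups overlapped for *hmgcra* and *fdps*. The share of all genes with this order of means, or without overlap of these 2 groups, was not computed, so neither is read as a result about the enzymes.

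No enzyme was called in fish exposed to E2. At 34.4 ng E2/l, where 3.82% of 11051 genes and 2.26% of 59151 contigs were called, none of the 9 enzymes and none of the 26 contigs was. *hmgcra* had 139, 107 and 164 CPM and *dhcr7* 256, 215 and 242 CPM, inside or near the range of the controls. *lss*, with 83.6, 58.6 and 90.7 CPM, had the lowest log2 fold change at -0.70 (SE 0.31, adjusted p = 0.247), followed by *cyp51* at -0.57 (SE 0.28, adjusted p = 0.306). Only *lss* of the 9 had an unadjusted p under 0.05, where 2017 of 11051 genes had one. The 95% intervals reached from -1.36 to 1.06 over the 8 enzymes listed in every table. The exact test and DESeq2 called no enzyme, against 595 and 853 of 11051 genes, and 1 contig each, against 3.57% and 4.81% of all contigs. The hepatocyte markers of this group summed to 59897 to 68286 CPM, below the 73587 CPM of the lowest control.

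At 1.9 ng E2/l the 8 log2 fold changes ran from -0.21 to 0.31 and at 18.1 ng E2/l from -0.38 to 0.16. None was called by the quasi-likelihood test, the exact test or DESeq2, and none had an unadjusted p under 0.05. Over all genes, 574 of 10752 at 1.9 ng/l and 284 of 10884 at 18.1 ng/l had such a p. The quasi-likelihood test called no gene at 1.9 ng/l (0% of 10752 genes, 0% of 55449 contigs) or at 18.1 ng/l (0% of 10884 genes, 0% of 56914 contigs). Over all genes, the exact test called 0 at 1.9 ng/l and 2 at 18.1 ng/l, and DESeq2 8 and 1. Between E2 concentrations, no enzyme was called at 34.4 against 18.1 ng/l (0.777% of all genes) or against 1.9 ng/l (1.54%). No E2 group lay wholly outside the controls for any enzyme. Over all genes at 34.4 ng E2/l, 3.7% lay wholly below and 8.33% wholly above the controls. These shares were 1.42% and 1.06% at 1.9 ng E2/l, and 0.781% and 0.662% at 18.1 ng E2/l.

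The highest concentrations of both chemicals were compared directly. At 225.9 µg linuron/l, 6 of the 8 enzymes were lower than at 34.4 ng E2/l, where 1.8% of all genes were called lower. They were *hmgcra* (log2 fold change -1.75, adjusted p = 0.0127), *fdps* (-2.50, adjusted p = 0.00830), *fdft1* (-1.93, adjusted p = 0.0311), *sqle* (-2.24, adjusted p = 0.0257), *lss* (-1.83, adjusted p = 0.00637) and *cyp51* (-1.71, adjusted p = 0.0308), from the quasi-likelihood test. *idi1* and *dhcr7* had log2 fold changes of -2.32 and -1.41 and were not called. Without fish 1 or fish 3 at 225.9 µg/l 1 enzyme was called, without fish 1 at 34.4 ng E2/l 3, and without fish 3 there 2. Over all genes, 185 were called lower with every fish, against 60 and 69 without fish 1 and fish 3 at 225.9 µg/l. Without fish 1 and fish 3 at 34.4 ng E2/l the genes called lower numbered 85 and 89.

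The enzymes varied together from fish to fish, also within groups. Control 6 was the highest control in 8 of 8 enzymes and control 1 the lowest in 6 of 8, and the highest control exceeded the lowest 2.53-fold (*cyp51*) to 7.05-fold (*idi1*). After the mean of each group was subtracted, the log2 CPM of *hmgcra* was compared with each of the 7 other enzymes over the 24 fish. Pearson's r ran from 0.60 (*dhcr7*) to 0.93 (*fdft1*) and Spearman's rho from 0.57 to 0.91. The permutation p was between 1e-05, the smallest that 100000 permutations can give, and 0.00148 for r and up to 0.00410 for rho, two-sided, and adjustment over the 7 relations left the largest values as they were. Permutations ran over all 24 fish and not within groups. Subtraction of the group means ties the values of a group to each other, so these p-values may be too small. Without the 2 fish farthest from the median of *hmgcra*, r ran from 0.50 to 0.92. The labels give no batch other than the exposure groups, whose means were subtracted. Over the 28 pairs of enzymes the median r was 0.82, and over 6363 other genes with a mean of at least 5 CPM the median r with *hmgcra* was 0.02. Values of 1 fish share a library and its scaling.

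**Figure D3:**
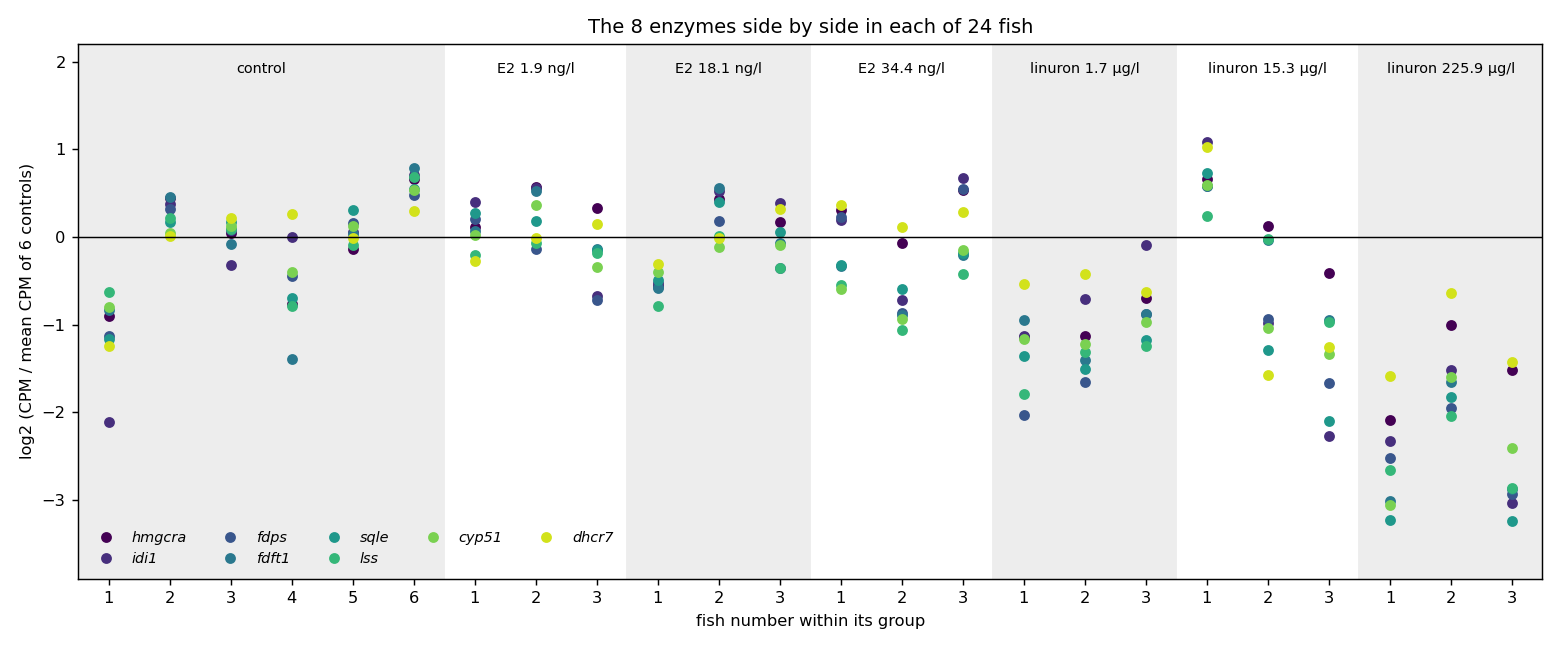
Log2 of CPM over the mean of the 6 controls (vertical axis) for the 8 enzymes, shown as coloured points in each of 24 fish (horizontal axis, numbered within groups, which are shaded in turn). Control 6 is the highest control in 8 of 8 enzymes, fish 1 at 15.3 µg linuron/l is above every control in 6, and fish 1 and 3 at 225.9 µg/l are below every control in all 8.

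Among annotations outside the pathway lists, the 5 most alike to the mean of the enzymes over the 24 fish, after subtraction of group means, were chromosome 14 open reading frame 1 (r = 0.93), phosphoglycolate phosphatase (r = 0.88), si:ch211-198n5.11 (r = 0.81), titin a (r = 0.80) and FK506 binding protein 14 (r = 0.78). Of these, phosphoglycolate phosphatase was called at 225.9 µg linuron/l, with a log2 fold change of -1.81 (SE 0.30, adjusted p = 0.0161). The first had -1.42 (adjusted p = 0.150). The other 3, from -0.34 to 0.58, were not called. Without subtraction of group means, 2 of the 5 names remained, the first 2.

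Of 13 annotations for the other enzymes of the pathway, 12 had log2 fold changes below 0 at 225.9 µg linuron/l, 11 had an unadjusted p under 0.05 and 3 were called lower. Over all genes 47.9% had a log2 fold change below 0, 11.8% an unadjusted p under 0.05 and 0.173% were called lower. *hmgcs1*, HMG-CoA synthase, which supplies the reductase, had 6.44, 28.9 and 14.0 CPM against 53.4 to 203 CPM in controls, a log2 fold change of -2.94 (SE 0.55, adjusted p = 0.0319), lower than in any member. *ebp*, the sterol isomerase, had 13.5, 16.2 and 9.72 CPM against 30.9 to 62.1 CPM (-1.92, SE 0.30, adjusted p = 0.0128). *hsd17b7*, a sterol ketone reductase, had 7.89, 14.8 and 8.86 CPM against 21.0 to 36.5 CPM (-1.48, SE 0.27, adjusted p = 0.0277). None of the exposed fish overlapped with the controls in these 3 genes. The exception in sign was *ggps1*, whose enzyme leads from farnesyl diphosphate away from sterols, at 0.02 (SE 0.33). The 5 called members and these 3 made up 8 of the 19 genes called lower in the table. As for the members, the calls of all 3 were lost without fish 1 or fish 3 of the exposed group, and those of *hmgcs1* and *hsd17b7* also without control 2, 3, 5 or 6.

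The median over this list was -1.45 at 225.9 µg/l and -0.98 at 1.7 µg/l, where 12 of 13 were below 0, 10 had an unadjusted p under 0.05 and none was called. At 15.3 µg/l the median was -0.13 and at 34.4 ng E2/l -0.28, with none called. Against 15.3 µg/l, *acat2* (thiolase, log2 fold change -1.53), *hmgcs1* (-2.84), *nsdhl* (sterol dehydrogenase, -1.19) and *ebp* (-1.81) were lower at 225.9 µg/l. Against 34.4 ng E2/l, *acat2* (-1.45), *hmgcs1* (-2.82), *ebp* (-2.17), *sc5dl* (sterol desaturase, -1.54) and *tm7sf2* (sterol reductase, -1.39) were lower. The calls against 15.3 µg/l were lost without fish 1 or fish 3 at 225.9 µg/l or with only the 6 fish in the model, that of *acat2* also without fish 2 at 15.3 µg/l and that of *nsdhl* also with library totals. Against 34.4 ng E2/l, those of *acat2*, *hmgcs1*, *sc5dl* and *tm7sf2* were lost without fish 1 or fish 3 at 225.9 µg/l or without fish 3 at 34.4 ng E2/l. Those of *acat2*, *sc5dl* and *tm7sf2* were also lost without fish 1 at 34.4 ng E2/l, those of *sc5dl* and *tm7sf2* without fish 2 there and that of *tm7sf2* without fish 2 at 225.9 µg/l, while *ebp* was called without any 1 of the 6 fish.

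**Figure D4:**
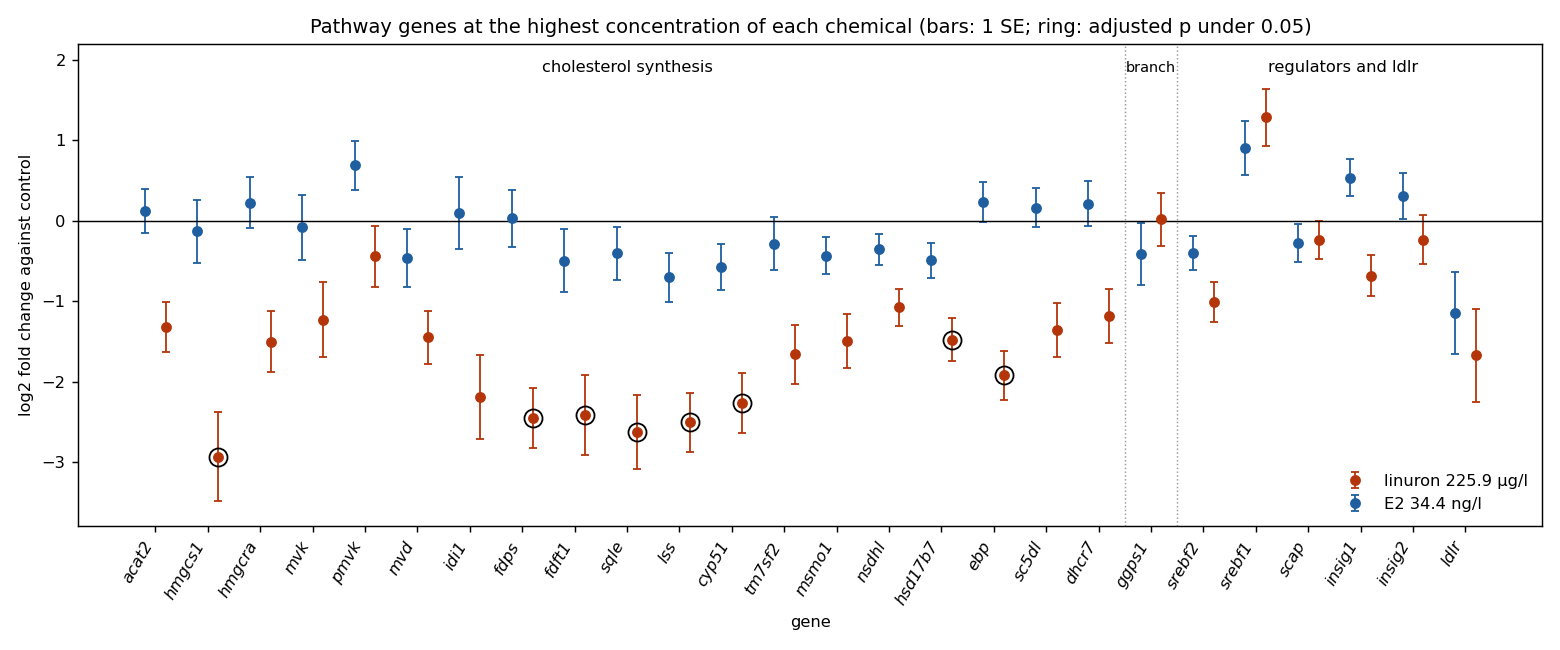
Log2 fold change against the 6 controls (vertical axis, bars of 1 SE) for 26 genes (horizontal axis): 19 enzymes of cholesterol synthesis in pathway order, *ggps1* of a branch, regulators and *ldlr*. Red points are 225.9 µg linuron/l and blue points 34.4 ng E2/l, and rings mark an adjusted p under 0.05. The 8 ringed genes at 225.9 µg/l lie between -2.94 and -1.48, and no gene shown is ringed at 34.4 ng E2/l.

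Of the regulators of the pathway, none of 8 annotations was called against the controls at any concentration. *srebf2*, which encodes SREBP-2, had a log2 fold change of -1.01 at 225.9 µg linuron/l (SE 0.25, adjusted p = 0.106), and *srebf1*, encoding the relative that acts mainly on fatty acid synthesis, 1.29 (SE 0.35, adjusted p = 0.138). *scap*, the escort of SREBP, was at -0.23 (SE 0.24). *insig1*, which holds SREBP back in the membrane, was lower at 225.9 µg linuron/l than at 34.4 ng E2/l (-1.24, adjusted p = 0.0483), a call lost when any 1 of the 6 fish was left out, and had -0.68 (SE 0.25, adjusted p = 0.299) against the controls.

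Of 12 annotations for the uptake, storage and export of cholesterol, none was called against the controls at any concentration. The median was -0.03 at 225.9 µg linuron/l and -0.44 at 34.4 ng E2/l. The low density lipoprotein receptor *ldlr* ranged from 221 to 1737 CPM in controls and from 121 to 346 CPM at 225.9 µg/l, a log2 fold change of -1.67 (SE 0.58, adjusted p = 0.257). The 3 genes of the polyisoprenoid branches were not called in any comparison.

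Bile acid synthesis, which uses up cholesterol, had 3 annotations, of which 2 were called, both lower, at 34.4 ng E2/l, where 1.18% of all genes were called lower, and none in another group against the controls. At 34.4 ng E2/l, *hsd3b7*, which acts early in the making of bile acids, had 24.8, 45.3 and 13.7 CPM against 114 to 165 CPM in controls (-2.33, SE 0.34, adjusted p = 0.00243), and *cyp8b1*, the sterol 12-hydroxylase that sets the kind of bile acid, had 146, 163 and 154 CPM against 230 to 1072 CPM (-1.71, SE 0.41, adjusted p = 0.0396). The call of *hsd3b7* held without any 1 of the 9 fish, and that of *cyp8b1* was lost without any 1 of the 3 exposed fish or without control 2, 3, 5 or 6. Neither was called at 225.9 µg linuron/l, where *hsd3b7* had 0.13 (SE 0.28) and *cyp8b1* -0.83 (SE 0.41, adjusted p = 0.455). *hsd3b7* was lower at 34.4 ng E2/l than at 18.1 (-2.18) and 1.9 ng E2/l (-1.87), calls lost without fish 1 or fish 3 at 34.4 ng E2/l, fish 1 at 18.1 ng E2/l or fish 2 or 3 at 1.9 ng E2/l, and, against 18.1 ng E2/l, with only the 6 fish in the model. *cyp7a1*, the rate-limiting enzyme of bile acid synthesis, had 0 to 43 counts per control fish, 2, 0 and 0 counts at 34.4 ng E2/l and 153, 34 and 83 counts at 225.9 µg linuron/l. Summed over fish, its level at 225.9 µg linuron/l was 139 times that at 34.4 ng E2/l, with a 95% interval of 38.2 to 1155 that covers counting error only. In the model of all 7 groups *cyp7a1* was called in this contrast. That call was lost without fish 1 or fish 3 at 225.9 µg linuron/l or without any 1 fish at 34.4 ng E2/l.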

How the data were processed

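The authors sequenced liver RNA of the 24 trout in paired reads, assembled the reads of all fish with Trinity and named contigs by Blastx hits to Ensembl peptides (zebrafish first). Mapping used Bowtie2 (2.1.0) with 1 reported hit for each read, and counting SAMtools (0.1.18). The values deposited by the authors and used here are raw counts per contig and fish. The authors' fold changes and p-values from edgeR were not used. Control counts were identical in the 6 tables.

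Members and lists were chosen with earlier results of these data known. The annotation of 1 further enzyme is not reported here. All 9 members were named, other genes of the lists only when called in a comparison, except *ggps1*, *srebf1*, *srebf2*, *scap* and *ldlr*, which were named after their values were seen. Counts of a gene's contigs were summed and tested with edgeR 4.0.16 in R 4.3.3 (TMM factors from all contigs of a table, a filter of 1 count or more in 3 fish or more, quasi-likelihood test, Benjamini-Hochberg adjustment), each group with the controls alone. Groups were compared with each other in a model of all 7 groups, over genes with contigs in all 6 tables. As alternatives, the exact test of edgeR, DESeq2 1.42.0, other scalings, other filters, a replicate block and the omission of each fish were run. Against the controls, the block kept only controls 1 to 3, which share their numbers with exposed fish. Between groups, it kept only the fish of the groups compared. The most alike genes had the highest Pearson correlation with the mean log2 CPM (prior count 1) of the members. The quasi-likelihood test, the exact test and DESeq2 were run on simulated contig counts of the 225.9 µg linuron/l comparison, with the same dispersion for every contig. No minimum of recovered changes was set there for the quasi-likelihood test. Contig sequences were not used here, so no positions are given. Of the lists, *soat1*, *lbr*, *abcg1*, *lipa*, *cyp27a1* and the muscle markers matched no annotation of the tables. The hepatocyte marker *serpina1* and the exocrine pancreas marker *cpa* were also planned and are not among the markers summed. Depth is given with the results, and p-values rest on 3 fish per exposed group. Python, numpy, pandas and scipy were used for summaries.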

Additional observations from a re-analysis of the deposited data

Results flagged for a closer look

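Among the 6 controls, 19 genes of the pathway and its lists were looked at for a fish far from the others, of which chance gives about 1 in 20, and 4 had one. The highest control was far above the others for *cyp7a1* (6.45 CPM) and *cyp8b1* (1072 CPM), and the lowest far below for *dhcr7* (83.9 CPM) and *sc5dl* (151 CPM).

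Other results drew attention because groups differed in their distance from the shared controls, tested as a contrast in the model of all 7 groups. Against 15.3 µg linuron/l, log2 fold changes at 225.9 µg linuron/l were -1.53 for *acat2*, -2.84 for *hmgcs1*, -1.66 for *hmgcra*, -2.06 for *fdps*, -2.37 for *fdft1*, -2.22 for *sqle*, -2.31 for *lss*, -1.91 for *cyp51*, -1.19 for *nsdhl* and -1.81 for *ebp*. Against 34.4 ng E2/l they were -1.45 for *acat2*, -2.82 for *hmgcs1*, -1.75 for *hmgcra*, -2.50 for *fdps*, -1.93 for *fdft1*, -2.24 for *sqle*, -1.83 for *lss*, -1.71 for *cyp51*, -1.39 for *tm7sf2*, -2.17 for *ebp*, -1.54 for *sc5dl* and -1.24 for *insig1*, with *hsd3b7* at 2.45 and *cyp7a1* at a fitted 6.78 that depends on the prior count. At 34.4 ng E2/l *hsd3b7* had a log2 fold change of -2.18 against 18.1 ng E2/l and -1.87 against 1.9 ng E2/l.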

How the results depend on the processing

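The calls at 225.9 µg linuron/l depended on the tool and on single fish, their direction did not: over 18 alternatives the log2 fold changes of the 5 enzymes stayed between -3.28 and -1.98, and *fdps*, *lss* and *cyp51* were each called in 16, *sqle* in 14 and *fdft1* in 11. Of the enzymes, DESeq2 called 8 and the omission of 1 fish left 0 to 7, against 5. Of the contigs, DESeq2 called 21, the exact test 15, the replicate block 0 and the omission of 1 fish left 0 to 13, against 8. Where none was called, at 1.7 µg linuron/l DESeq2 called 4 enzymes and 9 contigs and the exact test 1 of each, and at 34.4 ng E2/l DESeq2, the exact test, a minimum of 5 CPM and the replicate block called 1 contig each and the omission of 1 fish 0 to 1. Against 15.3 µg linuron/l, library totals left 2 of the 6 enzymes, the 6 fish alone 0, the replicate block 0, and the omission of 1 fish 1 to 6; against 34.4 ng E2/l that omission left 1 to 6. Signs turned for *dhcr7* at 225.9 against 15.3 µg linuron/l (-1.45 to 0.26 over omissions of 1 fish, 0.26 without fish 1 at 15.3 µg/l). They also turned for *idi1* at 1.7 µg/l with the replicate block (0.0061), a fit without controls 4 to 6. At 34.4 ng E2/l they turned for *idi1* (-0.24 to 0.38) and *fdps* (-0.27 to 0.33) over omissions of 1 fish. The cause of these differences was not tested. The replicate numbers did not pair the fish: same-numbered fish correlated from -0.65 to 0.40 over 33 pairs (median -0.01). The block changed no other count of members by over 1.5 times. Omissions of 1 fish aside, calls over all genes at 225.9 µg linuron/l ranged from 52 with the block to 359 with DESeq2 (78 as reported). At 34.4 ng E2/l these calls ranged from 257 to 853 (422). Over contigs they ranged from 31 to 763 (88) and from 1016 to 2844 (1338). All these low ends are from the block, in which controls 4 to 6 were left out. The omission of 1 fish gave 16 to 151 and 102 to 571 genes, and 20 to 178 and 391 to 1755 contigs. Between groups, calls over all genes went from 121 to 0 with the block, 4 with the 6 fish alone, 1231 without fish 1 at 15.3 µg/l and 13 without fish 1 at 225.9 µg/l (225.9 against 15.3 µg linuron/l), from 264 to 867 with the 6 fish alone and 89 to 234 over omissions of 1 fish (225.9 µg linuron/l against 34.4 ng E2/l), from 159 to 772 with library totals and 54 to 92 over omissions (34.4 against 1.9 ng E2/l) and from 80 to 43 with the block, 144 with totals and 38 to 70 over omissions (34.4 against 18.1 ng E2/l). Library totals moved the median of all genes by up to 0.35 and the share called higher at 34.4 ng E2/l from 69.2% to 86.7%. At 1.7 µg/l DESeq2 called 111 genes and 204 contigs where the quasi-likelihood test called 0. Among the values of single genes under an alternative, 691 kept their direction and their side of the threshold, 148 were no longer called, 17 became called and 8 changed sign.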
